A study of Homo sapiens with 15 samples.

Results

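The endoplasmic reticulum (ER) chaperone and XBP1 branch of the unfolded protein response was followed through 10 genes in A549 cells after repeated exposure to dimethylamine vapour. The genes were XBP1, HSPA5, HSP90B1, HYOU1, PDIA4, CRELD2, SDF2L1, DNAJB9, HERPUD1 and EDEM1. Each was read from the transcript cluster, the gene-level unit of the array, whose annotation named that symbol and no other, and where a symbol had several such clusters the one with the highest mean over the 15 arrays was kept. All 10 genes had such a cluster, out of 33616 symbols and 135750 clusters analysed, and no filter on low signals was applied.

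A549 is an established line from a human lung adenocarcinoma, and its cells were cultured here on microporous inserts with air above and medium beneath. All cultures went without serum from 18 h before exposure. Each of 3 exposures lasted 60 min with 23 h of recovery, together filling 72 h. There were 3 Affymetrix Clariom D arrays in each of 5 groups, and each array held the pooled RNA of 2 wells. The non-exposed control (NEC) had no flow over the cells, the clean air control (CA) had flow with 0 ppm of dimethylamine, and the exposed groups had 14.9 ppm (LD, low dose), 41.1 ppm (MD, mid dose) and 81.7 ppm (HD, high dose). The labels place all LD arrays on exposure plate 1, all MD arrays on plate 5 and all HD arrays on plate 6, whereas CA and NEC had 1 array per plate. The values of CA and NEC are given below in the order of plates 1, 5 and 6. Dose and plate can therefore be told apart only through the single CA and NEC arrays of each plate, and every result is from 1 tumour line.

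Signals are on the log2 scale, so that a difference of 1 is a 2-fold difference. The median of the 612 negative control clusters was 4.74. Array medians lay between 4.47 and 4.55, and any pair of arrays had an r of 0.974 to 0.984. The mean of the brightest 10% of named clusters lay between 12.74 and 13.06 in NEC, 12.77 and 13.06 in CA, 12.64 and 13.01 in LD, 12.78 and 13.17 in MD, and 12.86 and 13.18 in HD. All 6 epithelial markers examined were above the negative controls (means over the 15 arrays 7.43 to 17.72). Of markers of other cell types, the leukocyte genes PTPRC (5.35) and CD14 (6.71), the fibroblast genes COL1A1 (10.06) and COL1A2 (7.17) and the endothelial gene VWF (5.62) also averaged above the negative controls. The other members of those lists, CD3D, MS4A1, PDGFRB, THY1, CDH5, KDR and PECAM1, averaged below them (2.95 to 4.38).

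The unfolded protein response is the answer of a cell to unfolded proteins in the ER. Its sensors sit in the ER membrane. IRE1 (ERN1) splices the messenger RNA of XBP1 to give an active transcription factor, ATF6 is cut to release another, and PERK (EIF2AK3) slows translation and favours that of ATF4. XBP1 and ATF6 together switch on chaperones, folding enzymes and the machinery of ER-associated degradation (ERAD), which draws misfolded proteins out of the ER to the proteasome, whereas ATF4 switches on amino acid supply genes and DDIT3, also called CHOP. An array signal for XBP1 sums its spliced and unspliced messenger RNA, so it reports the amount of the transcript and not its splicing.

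The promoters of the 10 genes were examined for the elements through which the response is known to act. The RefSeq windows of GRCh38.p14, 250 bases before to 50 after each annotated start site, were searched on both strands for the ER stress response element ERSE (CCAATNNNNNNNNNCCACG), to which ATF6 binds with the factor NF-Y, for ERSE-II (ATTGGNCCACG) and for the unfolded protein response element UPRE (TGACGTGG), a site of XBP1. The windows below hold each ERSE or ERSE-II found, with 12 bases on either side, written 5′ to 3′ on the strand of the gene. Capitals mark the fixed letters of the element, which read CGTGG and ATTGG or CCAAT in the other order where the element lies on the opposite strand.
HSPA5 (ERSE, chr9:125241379-125241421, minus strand): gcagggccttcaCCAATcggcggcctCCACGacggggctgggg
HYOU1 (ERSE-II, chr11:119057368-119057402, minus strand): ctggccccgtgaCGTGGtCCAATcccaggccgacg
HYOU1 (ERSE-II, chr11:119057262-119057296, minus strand): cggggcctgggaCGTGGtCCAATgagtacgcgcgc
HSP90B1 (ERSE, chr12:103930204-103930246, plus strand): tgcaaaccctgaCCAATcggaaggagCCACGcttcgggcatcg
HSP90B1 (ERSE, chr12:103930309-103930351, plus strand): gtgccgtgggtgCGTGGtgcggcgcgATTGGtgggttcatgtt
HERPUD1 (ERSE-II, chr16:56932013-56932047, plus strand): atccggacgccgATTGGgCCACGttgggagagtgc
SDF2L1 (ERSE-II, chr22:21642102-21642136, plus strand): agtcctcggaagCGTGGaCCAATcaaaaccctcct
XBP1 (ERSE, chr22:28800591-28800633, minus strand): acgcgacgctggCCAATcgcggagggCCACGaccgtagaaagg
CRELD2 (ERSE, chr22:49918542-49918584, plus strand): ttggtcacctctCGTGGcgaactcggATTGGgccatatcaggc
All 10 genes matched a promoter window, with 12 start sites in all because PDIA4 and XBP1 have 2 each. ERSE was found in 4 of the 10 genes (HSPA5, HSP90B1, XBP1 and CRELD2, with a pair of sites in HSP90B1 and only 1 of the start sites of XBP1), against 27 of all 35116 promoters (0.0769%). ERSE-II was found in 3 genes (HYOU1, HERPUD1 and SDF2L1, with a pair of sites in HYOU1), against 0.0541% of promoters. The UPRE letters occurred in HYOU1, where they overlap the ERSE-II whose first base lies at -185 from the start site, and in 0.729% of promoters. The shorter CCACG, which both elements contain, occurred in all 10 genes and in 38.1% of promoters. Neither ERSE nor ERSE-II was in the windows of DNAJB9, EDEM1 and PDIA4, which says only that these letters are not in these windows. A match is a description of sequence and not evidence of a bound site.

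**Figure D1:**
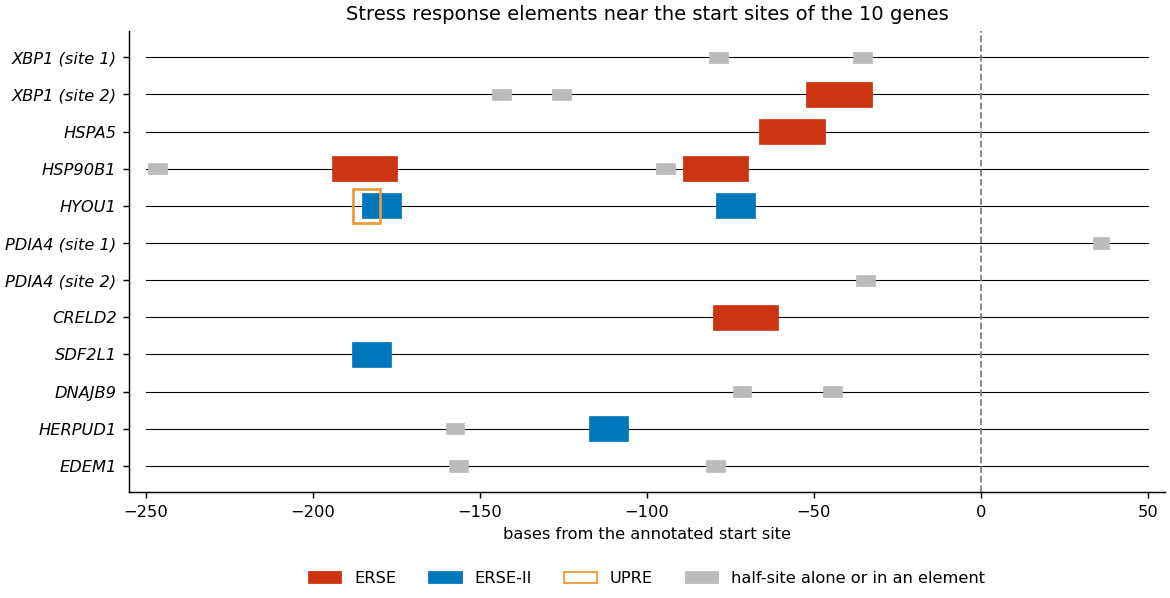
Positions of ERSE, ERSE-II, UPRE and CCACG matches in the windows of the 10 genes, in bases from the annotated start site (dashed line), with 1 row per start site. The ERSE and ERSE-II blocks all lie before the start site, from -194 in HSP90B1 to -52 in XBP1 by their first base.

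None of the 10 genes passed an adjusted p of 0.05 in any comparison (limma, Benjamini-Hochberg over all clusters). In HD against CA 59 clusters of the array passed (0.0435%), and the smallest adjusted p among the 10 genes was 0.421. NEC, LD and MD against CA gave no passing cluster at all (0% each), although 7381, 8617 and 8378 clusters had an unadjusted p below 0.05. What follows therefore describes differences that did not survive the correction, with their errors. In RNA of whole wells, fewer cells with a transcript and less of it per cell cannot be told apart. At the unadjusted threshold 4 of the 10 genes were lower in HD than in CA (XBP1, HYOU1, HSP90B1 and PDIA4), against 3.3% of all clusters and also 3.3% of the 20754 named clusters above the negative controls, and 0 were higher, against 3.08% of all clusters. The study required a fold above 2 besides that unadjusted p, which 0 of the 10 genes reached, against 0.821% of clusters. With the exposure plate as a replicate block, 4 genes were lower (4.38% of clusters) and 2 of them, XBP1 and HSP90B1, met the criteria of the study (1.92% of clusters). The differences from CA had a median of -0.48 over the 10 genes in LD (9 below 0), -0.28 in MD (9 below 0) and -0.45 in HD (8 below 0). Over all clusters the medians were -0.03, -0.01 and -0.01. Over the named clusters above the negative controls they were -0.10, 0.02 and 0.06. LD, MD and HD were all set against the same 3 CA arrays, so their values do not repeat one another independently.

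**Figure D2:**
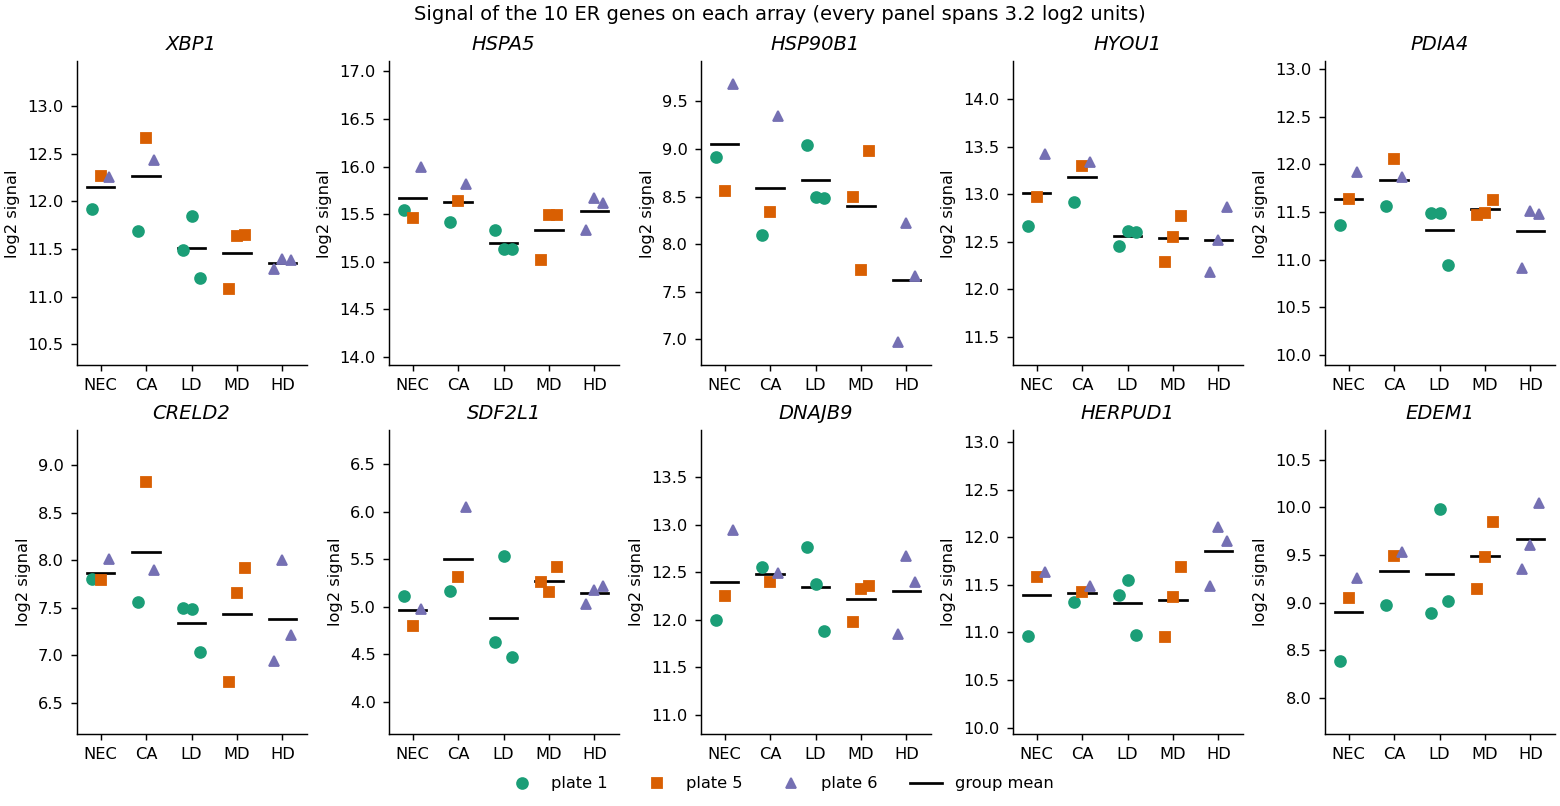
Log2 signal of the 10 genes on each of the 15 arrays, by group (NEC, CA, LD, MD, HD), with the exposure plate as colour and shape and the group mean as a line. XBP1, HYOU1, HSPA5, PDIA4, CRELD2 and DNAJB9 had lower means in the 3 dose groups than in CA and NEC. HSP90B1 was lowest in HD, and HERPUD1 and EDEM1 had their highest means in HD.

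XBP1, the transcription factor of the branch (its gene spans chr22:28794560-28800569 on GRCh38.p14), had the smallest p of the 10 genes in HD against CA in the model with groups only. It read 11.68, 12.67 and 12.43 on the CA arrays, 11.49, 11.85 and 11.19 in LD, 11.08, 11.64 and 11.65 in MD, and 11.29, 11.39 and 11.38 in HD. All MD and all HD arrays lay below all CA arrays, whereas LD overlapped CA through the CA array of plate 1. XBP1 was lower by 1.87-fold in HD than in CA (log2 difference -0.91, SE 0.26, limma unadjusted p = 0.00292, adjusted p = 0.421). The differences were -0.75 in LD (SE 0.26, unadjusted p = 0.0102, adjusted p = 0.711) and -0.81 in MD (SE 0.26, unadjusted p = 0.00666, adjusted p = 0.707). Between the doses XBP1 differed by -0.15 in HD against LD (95% interval -0.70 to 0.40) and -0.10 in HD against MD (-0.65 to 0.45). Blocking on the plate gave -0.70 in HD against LD (-1.47 to 0.08) and 0.020 in HD against MD (-0.76 to 0.80). NEC read 11.92, 12.26 and 12.26, above every HD array, and HD was lower than NEC by 1.73-fold (-0.79, unadjusted p = 0.0074, adjusted p = 0.354).

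The XBP1 value at the low dose differed between the fits with and without the plate. With 1 CA and 1 NEC array on each plate, a plate effect cannot be told apart from the spread of single arrays. The CA array of plate 1, at 11.68, was 0.75 to 0.99 below the other CA arrays, and LD lay only on that plate. Within plates, the dose mean stood at -0.18 from the CA array and -0.41 from the NEC array for LD, at -1.21 and -0.81 for MD, and at -1.08 and -0.91 for HD. With the plate as a block the XBP1 difference from CA was -0.35 in LD (unadjusted p = 0.231, adjusted p = 0.892), -1.07 in MD (0.00187 and 0.861) and -1.05 in HD (0.00215 and 0.371). The LD difference thus rests on CA arrays of plates that held no LD culture.

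HYOU1, a large chaperone of the ER lumen that also frees HSPA5 of its nucleotide (chr11:119044188-119057205), had lower means than CA at all 3 doses. It read 12.92, 13.30 and 13.34 in CA, 12.46, 12.62 and 12.60 in LD, 12.29, 12.55 and 12.78 in MD, and 12.18, 12.52 and 12.87 in HD. Every dose array lay below every CA array, whereas the NEC arrays, at 12.66, 12.97 and 13.42, overlapped both. HYOU1 was lower than in CA by 1.54-fold in LD (-0.63, SE 0.24, unadjusted p = 0.0177, adjusted p = 0.731), 1.57-fold in MD (-0.65, unadjusted p = 0.0145, adjusted p = 0.753) and 1.58-fold in HD (-0.66, unadjusted p = 0.0127, adjusted p = 0.627). Within plates the dose mean was at -0.35 from the CA array for LD, -0.76 for MD and -0.82 for HD, and with the plate as a block the LD difference was -0.31 (unadjusted p = 0.257). The array has 23 clusters annotated to HYOU1 alone, of which 22 have no placed position. Over these 22, HD against CA ran from -0.75 to 0.28 with a median of -0.29, with 20 below 0 and 4 lower at the unadjusted threshold. Averaged over all 23 clusters, HYOU1 differed by -0.50 in LD (unadjusted p = 0.0196), -0.38 in MD (0.0645) and -0.34 in HD (0.0996), and without HD replicate 1 the difference of its main cluster in HD was -0.49 (0.0724).

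HSP90B1, also called GRP94, is the HSP90 of the ER and folds secreted and surface proteins (chr12:103930410-103947926). Its cluster read 8.09, 8.33 and 9.35 in CA, 9.04, 8.50 and 8.49 in LD, 8.50, 7.73 and 8.98 in MD, and 6.97, 8.23 and 7.67 in HD. HD was the lowest group but overlapped CA, whose arrays themselves spanned 1.26 log2 units between plates 1 and 6. The difference of HD from CA was -0.97 (SE 0.40, 1.96-fold, unadjusted p = 0.0276, adjusted p = 0.723), and with the plate as a block it was -1.67 (SE 0.42, unadjusted p = 0.00124, adjusted p = 0.321). Against NEC, which read 8.92, 8.56 and 9.68, every HD array was lower, by 2.70-fold on average (-1.43, SE 0.40, unadjusted p = 0.00252, adjusted p = 0.24), and with the block the difference was -2.13 (unadjusted p = 0.000145, adjusted p = 0.091). HD was also lower than LD with no overlap (-1.06, SE 0.40, unadjusted p = 0.0181, adjusted p = 0.461), and with the block by -2.07 (unadjusted p = 0.00169, adjusted p = 0.392). LD and MD differed from CA by 0.083 and -0.19. The HD value rests on single arrays, at -0.59 from CA without the CA array of plate 6 (unadjusted p = 0.169) and -0.65 without HD replicate 1 (unadjusted p = 0.149).

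The HSP90B1 cluster chosen by the rule carries no gene identifier in the annotation, and a second cluster is annotated to both HSP90B1 and the microRNA MIR3652. Its values were examined after those of the first cluster had been seen. It read 16.29, 16.38 and 16.59 in CA, 16.52, 16.48 and 15.65 in LD, 15.38, 15.71 and 15.55 in MD, and 15.23, 15.67 and 15.84 in HD. Here all MD and all HD arrays lay below all CA arrays. The differences from CA were -0.20 in LD (SE 0.29, unadjusted p = 0.492), -0.87 in MD (unadjusted p = 0.00762, adjusted p = 0.717) and -0.84 in HD (unadjusted p = 0.00994, adjusted p = 0.584). The means of both clusters were thus lower in HD than in CA, whereas in MD the second one stood apart from CA and the first overlapped it. HD differed in the second cluster by -0.70 from NEC (1.63-fold, unadjusted p = 0.0265, adjusted p = 0.512) and by -0.64 from LD (1.55-fold, unadjusted p = 0.0414, adjusted p = 0.551), smaller differences than in the first cluster. With the plate as a block the second cluster differed from CA by 0.047 in LD (unadjusted p = 0.886), -0.72 in MD (unadjusted p = 0.043, adjusted p = 0.936) and -1.24 in HD (unadjusted p = 0.00171, adjusted p = 0.357). Which of these clusters reports the HSP90B1 messenger RNA was not tested.

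HSPA5, also called BiP or GRP78, is the HSP70 of the ER, the chaperone that holds the stress sensors inactive and the usual marker of ER stress (chr9:125234853-125241343). It read 15.42, 15.64 and 15.82 in CA, 15.33, 15.13 and 15.13 in LD, 15.02, 15.49 and 15.49 in MD, and 15.33, 15.67 and 15.61 in HD. The HD arrays lay within or just under the CA range, and only the LD arrays lay below every CA array. The difference from CA was -0.43 in LD (95% interval -0.88 to 0.02, unadjusted p = 0.0605), -0.29 in MD (-0.74 to 0.16) and -0.09 in HD (-0.54 to 0.36, unadjusted p = 0.683). With the plate as a block these were -0.26, -0.19 and -0.35, with intervals that all included 0 (-0.88 to 0.18 in HD).

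The folding enzyme PDIA4, a protein disulfide isomerase that forms and reshuffles disulfide bonds (chr7:149003051-149028505), read 11.56, 12.06 and 11.87 in CA, 11.49, 11.49 and 10.94 in LD, 11.47, 11.49 and 11.62 in MD, and 10.91, 11.51 and 11.48 in HD. LD and HD did not overlap CA, while the highest MD array exceeded the lowest CA array. It differed from CA by -0.52 in LD (SE 0.23, unadjusted p = 0.0392, adjusted p = 0.769), -0.30 in MD (unadjusted p = 0.21) and -0.53 in HD, or 1.45-fold (unadjusted p = 0.0367, adjusted p = 0.752). HD replicate 1, the lowest array, carried part of the HD value, which was -0.34 without it (unadjusted p = 0.189). With the plate as a block PDIA4 differed from CA by -0.25 in LD (unadjusted p = 0.379), -0.42 in MD (0.153) and -0.69 in HD (0.0243, adjusted p = 0.593). NEC read 11.36, 11.63 and 11.92 and overlapped HD, with a difference of HD from NEC of -0.34 (unadjusted p = 0.165).

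CRELD2, an ER-resident protein with disulfide isomerase activity (chr22:49918634-49927537), read 7.56, 8.82 and 7.90 in CA, 7.50, 7.49 and 7.03 in LD, 6.73, 7.66 and 7.92 in MD, and 6.94, 8.00 and 7.22 in HD. In the model with groups only, its differences from CA were close to each other, at -0.75 in LD (SE 0.35, unadjusted p = 0.0475, adjusted p = 0.783), -0.66 in MD (unadjusted p = 0.0791) and -0.71 in HD (unadjusted p = 0.0615). Only LD did not overlap CA. The CA array of plate 5, at 8.82, was far above the others, and without it the differences were -0.39 in LD, -0.30 in MD and -0.34 in HD. With the plate as a block they were less even, at -0.45 in LD (unadjusted p = 0.306), -0.98 in MD (unadjusted p = 0.037, adjusted p = 0.922) and -0.68 in HD (unadjusted p = 0.132).

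SDF2L1, which works with HSPA5 and the DNAJ co-chaperones of the lumen (chr22:21642302-21644299), read 5.16, 5.31 and 6.05 in CA, 4.63, 5.53 and 4.47 in LD, 5.26, 5.15 and 5.41 in MD, and 5.03, 5.17 and 5.21 in HD. LD replicates 1 and 3 lay below the negative control median of 4.74 and most other arrays little above it, where the size of a difference is uncertain. SDF2L1 differed from CA by -0.63 in LD (unadjusted p = 0.0348, adjusted p = 0.76), -0.23 in MD and -0.37 in HD (unadjusted p = 0.198). Without the CA array of plate 6, at 6.05, these were -0.36 (unadjusted p = 0.211), 0.039 and -0.095. The NEC arrays, at 5.12, 4.79 and 4.97, also lay below every CA array, and HD differed from NEC by 0.18 (unadjusted p = 0.522). DNAJB9, also called ERdj4, a DNAJ co-chaperone of HSPA5 that represses IRE1 (chr7:108569874-108574850), differed from CA by -0.14 in LD (unadjusted p = 0.624), -0.26 in MD (0.361) and -0.18 in HD (0.539). Its MD arrays, 11.98, 12.32 and 12.36, lay below the narrow CA range of 12.40 to 12.56.

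The ERAD genes HERPUD1 and EDEM1 had positive differences in HD. HERPUD1, a membrane protein that helps assemble the HRD1 ubiquitin ligase complex (chr16:56932142-56944864), read 11.32, 11.42 and 11.49 in CA, 11.40, 11.56 and 10.97 in LD, 10.96, 11.37 and 11.69 in MD, and 11.49, 12.11 and 11.96 in HD. HD replicates 2 and 3 were above every CA array, and HD replicate 1 was level with the highest. The difference of HD was 0.44 from CA (SE 0.25, unadjusted p = 0.0999, adjusted p = 0.851), 0.46 from NEC (unadjusted p = 0.087), 0.55 from LD (unadjusted p = 0.0458, adjusted p = 0.562) and 0.51 from MD (unadjusted p = 0.0584). LD and MD themselves differed from CA by -0.11 and -0.074. With the plate as a block HD differed by 0.28 from CA (unadjusted p = 0.377) and by 0.12 from LD (unadjusted p = 0.756).

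EDEM1, which pulls misfolded glycoproteins out of the folding cycle for degradation (chr3:5187707-5219958), read 8.98, 9.49 and 9.53 in CA, 8.89, 9.99 and 9.01 in LD, 9.15, 9.47 and 9.85 in MD, and 9.35, 9.60 and 10.05 in HD. HD overlapped CA, with a difference of 0.34 (SE 0.32, unadjusted p = 0.302), which was 0.058 in the blocked fit. NEC was the lowest group, at 8.38, 9.05 and 9.26, and all HD arrays lay above all NEC arrays. EDEM1 was higher by 1.71-fold in HD than in NEC (0.77, SE 0.32, unadjusted p = 0.0261, adjusted p = 0.512), and with the plate as a block that difference was 0.49 (unadjusted p = 0.189), and averaged over the 2 clusters of the symbol it was 0.29 (unadjusted p = 0.213).

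**Figure D3:**
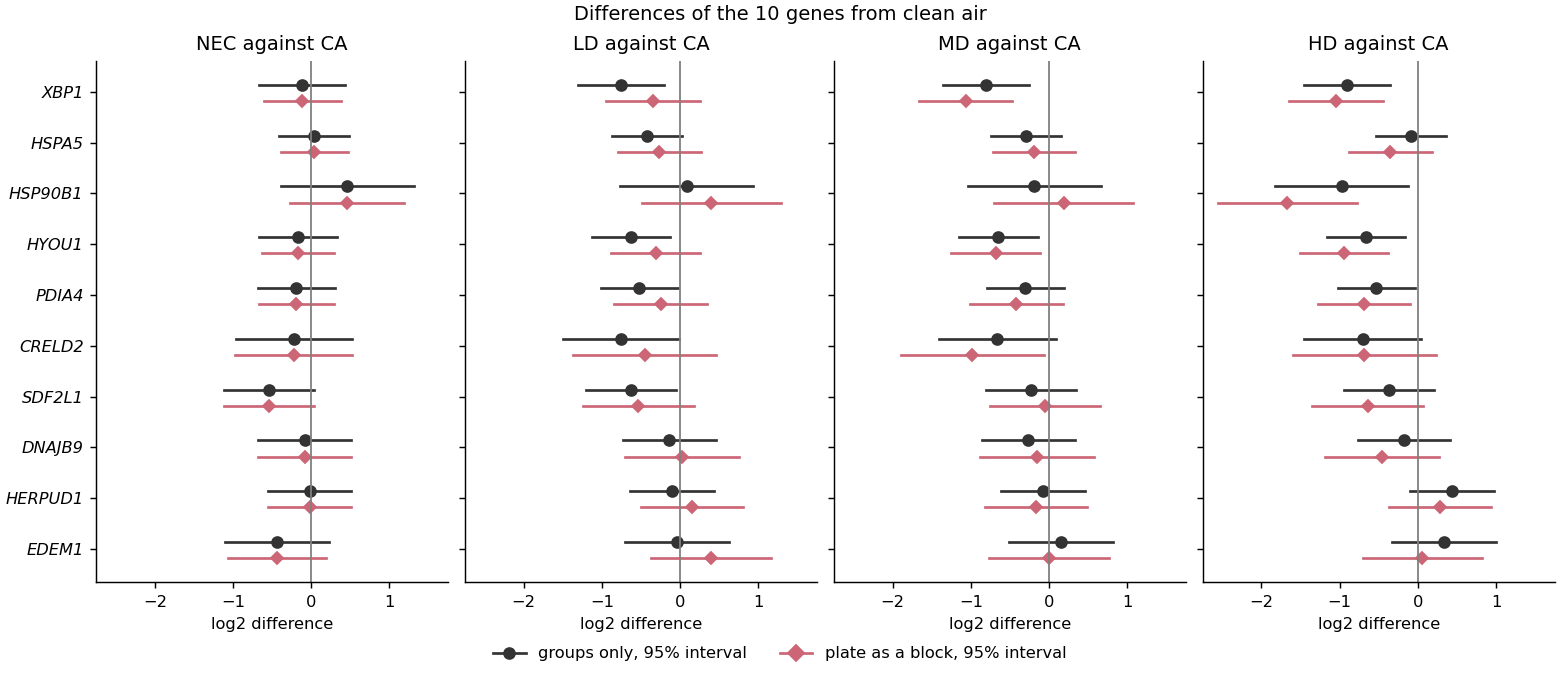
Log2 differences of the 10 genes from CA for NEC, LD, MD and HD, with 95% intervals, from the model with groups only (circles) and with plates as blocks (diamonds). With the block the LD differences of XBP1 and HYOU1 stood at -0.35 and -0.31 with intervals across 0, while those of HD were -1.05 and -0.94 with intervals below 0.

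The counts in LD and MD differed between the fits with and without the plate as a block. In LD, 5 of the 10 genes were lower than in CA at the unadjusted threshold (XBP1, HYOU1, CRELD2, PDIA4 and SDF2L1), against 3.63% of all clusters and 5.82% of the named clusters above the negative controls. In MD, 2 were (XBP1 and HYOU1), against 3.37% and 3.07%. With the plate as a block there were 0 in LD (against 3.99% of clusters) and 3 in MD (XBP1, HYOU1 and CRELD2, against 3.05%). In the blocked fit the median over the 10 genes was -0.26 in LD, -0.18 in MD and -0.66 in HD. Genes whose 3 dose arrays all lay below the 3 CA arrays numbered 4 in LD (HSPA5, HYOU1, CRELD2 and PDIA4), against 8.11% of the named clusters above the negative controls, 3 in MD (XBP1, HYOU1 and DNAJB9), against 6.14%, and 3 in HD (XBP1, HYOU1 and PDIA4), against 5.42%.

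The counts at the unadjusted threshold rest on single arrays. The share of all clusters at that threshold was not counted with an array left out, so the counts below have none beside them. Without HD replicate 1, whose mean over the 10 genes was the lowest of all arrays (-0.46 after centring each gene on its own mean), 1 gene was lower in HD than in CA (XBP1) and 1 was higher (HERPUD1, 0.62, unadjusted p = 0.0369). Without the CA array of plate 6, 2 were lower (XBP1 and HYOU1) and 0 higher. Without either of them XBP1 still differed, by -0.87 (unadjusted p = 0.0103) and -0.82 (unadjusted p = 0.0137). In MD there was 1 lower without MD replicate 1 and 1 without the CA array of plate 6. There were 3 lower in MD without MD replicate 3 and also 3 without the CA array of plate 1. The study removed the sample labelled as MD replicate 3 from its separate sequencing data (TempO-Seq) as an outlier. In LD there were 2 lower without LD replicate 1 and 1 without LD replicate 3, without the CA array of plate 5 or without that of plate 6. With each array centred on its bright clusters, the median over the 10 genes was -0.38 in LD, -0.29 in MD and -0.53 in HD.

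**Figure D4:**
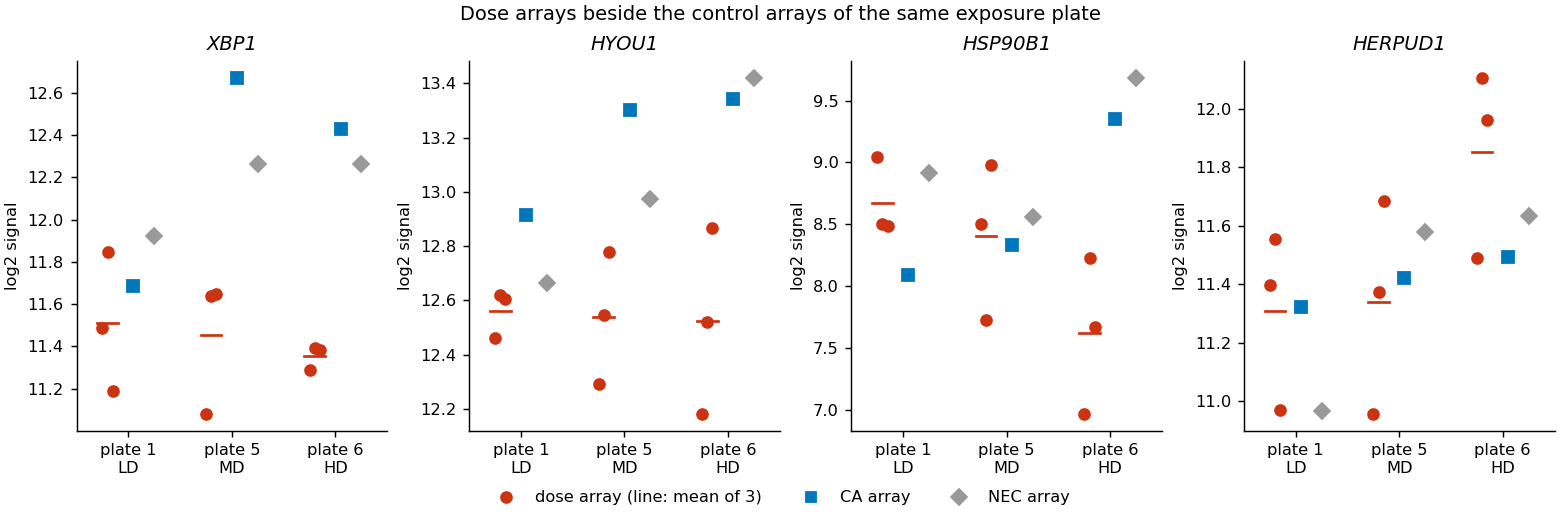
Log2 signals of XBP1, HYOU1, HSP90B1 and HERPUD1 on exposure plates 1, 5 and 6, with the 3 dose arrays of a plate (circles, mean as a line) beside its CA array (square) and NEC array (diamond). For XBP1 the MD and HD arrays lay below both control arrays of their plates, whereas on plate 1 an LD array lay above the CA array.

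The flow of clean air alone was set apart by NEC against CA. None of the 10 genes had an unadjusted p below 0.05. Their median difference was -0.14, against 0.01 over all clusters and -0.03 over the named clusters above the negative controls. SDF2L1 (-0.54, unadjusted p = 0.063) and HSP90B1 (0.46, unadjusted p = 0.269) differed by the most, and XBP1 and HYOU1 differed by -0.11 (95% interval -0.66 to 0.44) and -0.17 (-0.67 to 0.33). In HD against NEC 321 clusters passed the adjusted threshold (0.236%) and 0 of the 10 genes did. At the unadjusted threshold 2 were lower, XBP1 and HSP90B1, against 4.5% of clusters, and EDEM1 was higher, against 3.86%. With the plate as a block 3 were lower, against 5.27% of clusters, and 0 higher, against 3.65%. HYOU1 was the gene added, at -0.77 (unadjusted p = 0.0109, adjusted p = 0.386), where the model with groups only gave -0.50 (unadjusted p = 0.0525). In the model with groups only, HSP90B1 was the 1 gene to meet the criteria of the study in HD against NEC (1.26% of clusters). It was also the 1 gene to do so in HD against LD (1.08% of clusters). It was read from the cluster without a gene identifier, and in that model its second cluster met the criteria in neither. With the plate as a block the second cluster met them in both, at -1.11 from NEC (unadjusted p = 0.004, adjusted p = 0.289) and -1.29 from LD (unadjusted p = 0.00777, adjusted p = 0.471).

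The trend with concentration was not called for any of the 10 genes. The slope on ppm over 12 arrays, NEC left out, passed the adjusted threshold for 101 clusters (0.0744%) and for 0 of the 10 genes. It was -0.13 log2 units per 10 ppm for HSP90B1 (SE 0.04, unadjusted p = 0.00979, adjusted p = 0.476) and -0.09 for XBP1 (SE 0.03, unadjusted p = 0.0227, adjusted p = 0.568). For the second HSP90B1 cluster the slope was -0.11 (SE 0.03, unadjusted p = 0.00316, adjusted p = 0.35). HYOU1 (-0.06, unadjusted p = 0.0523) and HERPUD1 (0.06, unadjusted p = 0.0539) stood just above the threshold with opposite signs, and HSPA5 had a slope of 0.0058 (unadjusted p = 0.825). In HD against LD 21 clusters passed (0.0155%) and in HD against MD no cluster did (0%), with 0 of the 10 genes in either and 6000 clusters at an unadjusted p below 0.05 in HD against MD.

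Set out by promoter element, the genes with ERSE differed in HD from CA by -0.97 (HSP90B1, or -0.84 in its second cluster), -0.91 (XBP1), -0.71 (CRELD2) and -0.09 (HSPA5). Those with ERSE-II differed by -0.66 (HYOU1), -0.37 (SDF2L1) and 0.44 (HERPUD1), and those with neither by -0.53 (PDIA4), -0.18 (DNAJB9) and 0.34 (EDEM1). Each set thus held a gene near or above 0 and at least 1 well below it.

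The 10 genes shared part of their variation over arrays. After each gene was centred on its own mean, their average ran from -0.46 in HD replicate 1 to 0.44 in the CA array of plate 6, and it averaged 0.11 ± 0.28 in NEC, 0.24 ± 0.27 in CA, -0.15 ± 0.25 in LD, -0.09 ± 0.27 in MD and -0.12 ± 0.29 in HD (SD, n = 3 each). PDIA4 followed this average most closely over the 15 arrays (r = 0.91), then HYOU1 (0.86), CRELD2 (0.82), XBP1 (0.81) and HSPA5 (0.78), and HERPUD1 (0.49) and EDEM1 (0.35) least, each r including the gene itself. Outside the 10 genes, the highest r among 20724 clusters belonged to P4HB (0.94), a disulfide isomerase and subunit of prolyl hydroxylase, PDIA6 (0.94), another disulfide isomerase, BDKRB2 (0.93), a bradykinin receptor, RPN2 (0.93), a subunit of oligosaccharyltransferase, and ACP2 (0.93), a lysosomal phosphatase. All these points share their arrays, plates and overall brightness.

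Other ER genes were read with the same rule. Of 20 further folding factors, 19 were measured, and in HD against CA 5 were lower (against 3.3% of all clusters) and 1 was higher (3.08%) at the unadjusted threshold, with 0 at the adjusted one and a median of -0.33. The blocked fit had 8 lower (4.38% of clusters), 0 higher (3.18%) and a median of -0.60. UGGT1, the glucosyltransferase that checks folding, differed by -0.54 (unadjusted p = 0.0158), PDIA6 by -0.50 (0.0236) and PDIA3 by -0.50 (0.0327), whereas ERO1A, the oxidase that recharges disulfide isomerases, differed by 0.67 (0.0133), or 0.44 in the blocked fit (unadjusted p = 0.149). Of 21 genes of ER translocation and COPII transport 18 were measured, 4 were lower and 0 higher, with a median of -0.29, and in the blocked fit 6 were lower and 0 higher, with a median of -0.54. KDELR3, a receptor that returns escaped chaperones to the ER, differed by -1.10 (unadjusted p = 0.00428, adjusted p = 0.478), KDELR1 by -0.59, the coat protein SEC24D by -0.76 and SRPRB, a subunit of the signal recognition particle receptor, by -0.55.

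Of 16 other ERAD genes 15 were measured. In HD against CA none had an unadjusted p below 0.05 (median -0.09). EDEM3 at -0.30, DERL2 at -0.35, ERLEC1 at -0.32 and UBE2J1 at 0.27 had the smallest. Of 8 genes of the sensors and their processing 7 were measured, also with none (median -0.10). ERN1, the kinase and nuclease that splices XBP1, differed by 0.51 (unadjusted p = 0.108), CREB3L2 by -0.28, ATF6B by -0.40 and RTCB, the ligase that joins the cut XBP1 message, by 0.10. Of 10 cytosolic chaperones 7 were measured, with none at the unadjusted threshold and a median of 0.00, among them HSP90AB1 at 0.08, HSPA4 at -0.12, DNAJB1 at 0.31 and BAG3 at 0.57. In the blocked fit the medians of these 3 lists were -0.24, -0.18 and -0.14, again with no gene at the unadjusted threshold.

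The PERK and ATF4 branch had a median above 0 in HD. All 12 of its genes were measured, and in HD against CA 9 were higher (against 3.08% of all clusters) and 0 lower (3.3%) at the unadjusted threshold, with a median of 1.33, where LD had -0.10 and MD 0.54. In the blocked fit of HD against CA 7 were higher (against 3.18% of all clusters) and 1 was lower (4.38%). The lower gene was DDIT4 (-0.81, unadjusted p = 0.0199). The blocked medians were 0.39 in LD, 0.39 in MD and 1.05 in HD. DDIT3, the stress-induced transcription factor, read 7.89, 7.56 and 8.55 in HD, against 5.30, 5.41 and 5.52 in CA, and it alone rose past the adjusted threshold (2.59, SE 0.30, adjusted p = 0.00428, or 0.0752 with the plate as a block). PSAT1, an enzyme of serine synthesis, differed by 1.25 (adjusted p = 0.0923), PPP1R15A, which restores translation, by 1.54 (adjusted p = 0.134) and ASNS, asparagine synthetase, by 1.40 (adjusted p = 0.152). HD arrays of all 3 lay above all CA arrays. Those of PSAT1 and PPP1R15A also lay above all NEC arrays, whereas for ASNS the NEC array of plate 6 (12.02) exceeded HD replicate 2 (12.01). The difference between this list and the 10 genes was not tested.

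**Figure D5:**
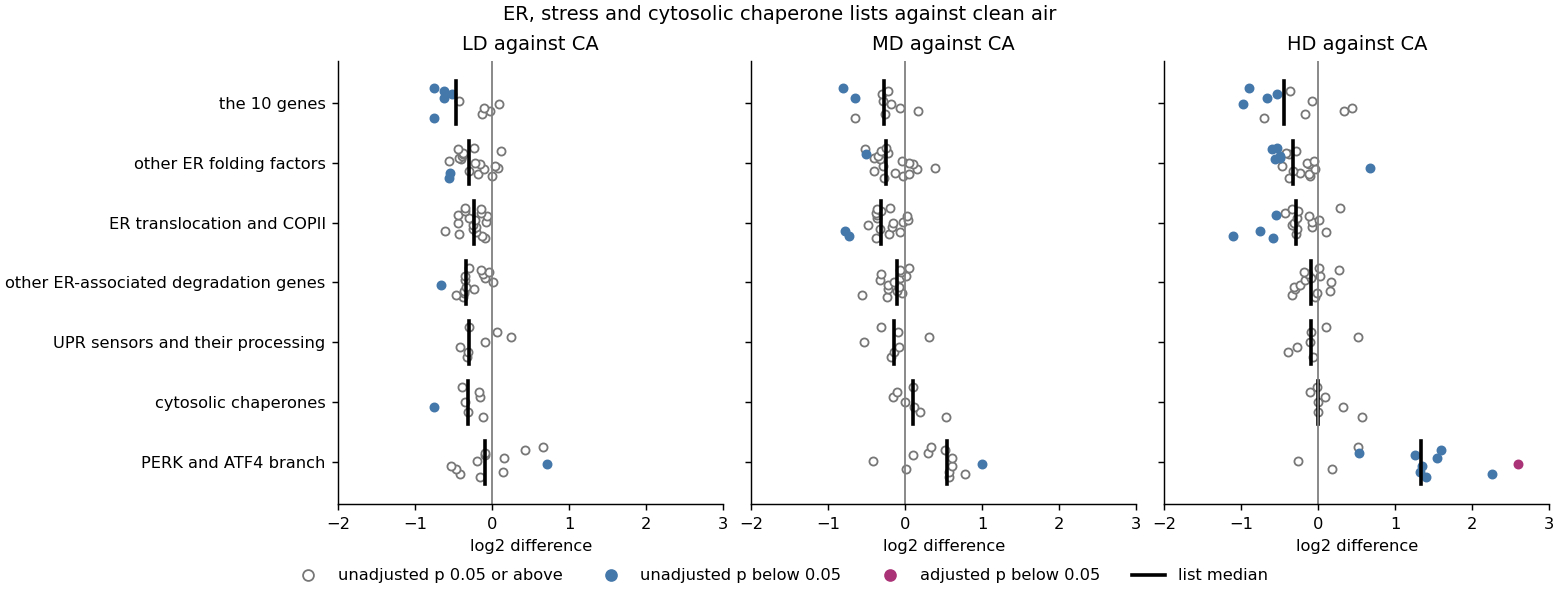
Log2 differences from CA in LD, MD and HD for the 10 genes and 6 other lists, with 1 point per gene filled by its p and the list median as a bar. In HD the median was 1.33 for the PERK and ATF4 branch and -0.45 for the 10 genes, with DDIT3 the only filled point at an adjusted p below 0.05.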

How the data were processed

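Expression was measured in 15 A549 samples on Affymetrix Clariom D arrays. Per the study's methods, the authors applied robust multi-array averaging (RMA) with Transcriptome Analysis Console 4.0. The deposited values are log2 signals of 138745 transcript clusters, from 2.08 to 19.93. The study's methods name the hg38 release of the array annotation for the mapping to Ensembl transcripts. Of the clusters, 2995 controls were left out. Gene symbols came from the platform annotation. There was a single symbol for 36176 clusters, more than 1 for 1119 and no symbol for 98455. The number of arrays, 3 a group, limits the precision. The p-values of the model with groups only measure the spread between arrays of a group. For a dose these arrays were pools from 1 plate, whereas for CA and NEC they came from 3 plates. No dose was repeated on another plate.

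Group means were estimated in a linear model over the 15 arrays (lmFit and eBayes, limma 3.58.1 under R 4.3.3, files read with data.table, version 1.17.8), with 10 residual and 6.32 prior degrees of freedom. Two-sided tests were corrected by Benjamini-Hochberg across 135750 clusters, and the threshold was 0.05. The slope on concentration was fitted over 12 arrays. The fitting was tested on simulated data. Because RMA normalizes the arrays to each other, a shift common to most genes could go unseen. The deposited cluster values still differed between arrays in the mean of the bright clusters, from 12.64 to 13.18. Signals near the top of the range may be compressed, which was not tested.

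CA and NEC arrays of the same plate, paired by the exposure plate of the labels, deviated together from their group means (r = 0.23, 0.11 and 0.22, against -0.20 to -0.02 between plates), so plate was also fitted as a replicate block with 8 residual degrees of freedom. A plate as described has too few vapour wells for the 3 pools of a dose, so the field may not name a single physical plate. CA and NEC arrays were numbered in the order of their deposition, which follows plates 1, 5 and 6. Alternatives were the compared groups alone, other moderation, a filter on dim clusters, other centring, quantile normalization, the mean of all clusters of a symbol and leaving out each array.

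The 10 genes and the 6 other lists were chosen with earlier results of these data known. Named genes were the 10, up to 4 genes of each other list with the smallest p in HD against CA, the 5 clusters most like the mean of the 10, and the cell type markers. Promoters were searched with Python 3.11 and pandas 2.3.3.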

Additional observations from a re-analysis of the deposited data

How the results depend on the processing

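No gene of the 10 passed the adjusted threshold under any setting, and the smallest adjusted p was 0.231 in HD against CA and 0.0771 in HD against NEC, so no such call depended on the processing. Counts at the unadjusted threshold did move. The share of all clusters was counted only for the model with groups only and for the plate block, so the other counts have no such share beside them. In MD against CA there was 1 with the mean of all clusters of a symbol. In LD against CA there were 3 with the compared groups alone, 3 with centring on the array median, 3 with centring on bright clusters and 0 with the plate as a replicate block. Leaving out 1 array gave 0 to 1 genes in NEC against CA, 1 to 6 in LD, 1 to 3 in MD and 2 to 5 in HD, all lower except HERPUD1, higher without HD replicate 1. With the plate as a block the differences of HERPUD1 and EDEM1 turned to 0.15 and 0.40 in LD against CA, that of SDF2L1 to -0.10 in HD against NEC, those of HSPA5, EDEM1 and SDF2L1 to -0.086, -0.34 and -0.11 in HD against LD, and those of HSPA5 and DNAJB9 to -0.16 and -0.31 in HD against MD. The HSP90B1 cluster that also names MIR3652, an alternative added after seeing the data, gave -0.14 in NEC against CA and 0.036 in HD against MD, both of the other sign. CRELD2 in NEC against CA ran from -0.49 to 0.14 when 1 array was left out. In HD against CA 3 of 160 values of the 10 genes changed sign, none by more than its standard error, and in LD against CA 16 of 160 did, 2 by more. The cause was not tested. The replicate numbers of LD, MD and HD gave deviations that correlated at -0.20 to 0.16 within a number, so the samples share only a number. Signals of SDF2L1 near the negative controls and 3 arrays a group limit what could be seen.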
